A study of Mus musculus with 11 samples.

Results

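Creatine kinases and the genes that supply them with creatine were followed in pancreatic islets of mice that carry a point mutation of Pdx1. The set was named in advance and has 7 genes, namely the kinases Ckb, Ckm, Ckmt1 and Ckmt2, the synthesis enzymes Gatm and Gamt, and the creatine carrier Slc6a8. The gene table used here held 19329 gene IDs and had a row for 5 of the 7, since no row was found for Ckm or Ckmt2, which were not analysed here. Ckb was put in the set because it stands near the top of the study's gene table, which is ordered by the difference between the genotypes, so its difference is described below and carries no test. Values of both genotypes could be assigned to 2 members, Ckb and Gatm.

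The islets came from male mice aged 14 weeks. Homozygous PDX1P33T mice, in which proline 33 of the transcription factor PDX1 is replaced by threonine in every cell of the body, gave 5 libraries, and wild-type mice gave 6. The line was made with CRISPR-Cas9 on a pure C57BL/6N background, no treatment was given, and whole islets, not sorted cells, were kept in culture before their RNA was taken. The study describes its islet samples as biological replicates of 6 mice each, so a library stands for a pool and not for 1 animal, and p-values measure the spread between such pools. Which mice went into which library is not given in the labels.

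Creatine kinases move a phosphate group between ATP and creatine, so that creatine phosphate can hold a reserve of high-energy phosphate and carry it from mitochondria to places where ATP is used. Creatine is made from arginine and glycine by Gatm, a mitochondrial enzyme, followed by Gamt, which adds a methyl group, or is taken up from blood by Slc6a8. In beta cells the ratio of ATP to ADP closes the potassium channel that starts insulin release.

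Expression was given as FPKM, read counts scaled by transcript length and library size, so that genes can be compared with each other. Recovered library totals ran from 19311937 to 37094286 reads in wild-type and from 23731684 to 36865206 in PDX1P33T. In the gene table, PDX1P33T values stood on their own rows but most wild-type values did not, and the wild-type row could be identified for 4594 gene IDs (23.8%). Pdx1 itself ran from 77.9 to 80 FPKM in the 5 PDX1P33T libraries, which does not check the genotype, because FPKM do not show an exchanged base. All 9 beta cell markers listed were above 0 in PDX1P33T islets, and 3 libraries stood apart in markers of other cells. Wild-type replicate 3 was high in endothelial markers, wild-type replicate 2 in stromal markers and PDX1P33T replicate 2 in acinar markers. The differences of Ckb and Gatm are given with and without them.

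The sequences just before the starts of Ckb and Gatm are shown because these are the members with values of both genotypes and because PDX1 is a homeodomain factor, a class that binds sites with a TAAT core. Both are from RefSeq on build GRCm38.p6, whereas the study's reads were aligned to GRCm39, and no coordinate was converted. Ckb lies on the minus strand of chromosome 12, at chr12:111669361-111672338 in GENCODE on GRCm38. The window of 250 bases before its start is chr12:111672339-111672588. Gatm lies on the minus strand of chromosome 2, at chr2:122594467-122611303, and the window shown is chr2:122611304-122611527, or 224 bases, which leaves out the bases that GENCODE counts as part of the gene. Capitals mark CCAAT and TATAAA on either strand.
Ckb: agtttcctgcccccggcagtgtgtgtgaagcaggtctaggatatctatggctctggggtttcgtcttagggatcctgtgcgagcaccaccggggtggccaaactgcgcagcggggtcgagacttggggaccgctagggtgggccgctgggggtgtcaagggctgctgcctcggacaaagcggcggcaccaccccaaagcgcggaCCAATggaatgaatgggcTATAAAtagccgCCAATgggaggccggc
Gatm: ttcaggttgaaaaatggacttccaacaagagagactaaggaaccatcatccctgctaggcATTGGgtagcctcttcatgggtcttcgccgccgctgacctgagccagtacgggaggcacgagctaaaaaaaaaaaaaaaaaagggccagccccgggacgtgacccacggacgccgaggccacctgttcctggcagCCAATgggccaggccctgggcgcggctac

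TAAT was searched on both strands and was found in neither window, whereas 54.9% of 32851 RefSeq promoters held it in the 250 bases before the start. That says only that these letters are not in these windows. Of the other members with a row, Ckmt1 and Gamt held TAAT in the 250 bases before a RefSeq start, and Slc6a8 had no promoter entry. The Ckb window held TATAAA once, with its first base 28 bases before the start, and CCAAT at 46 and 16 bases before it. The Gatm window held CCAAT at 190 and 55 bases before the RefSeq start and no TATAAA. Of all promoters, 12.4% held TATAAA and 33.8% held CCAAT. Another motif searched, GGGCGG, was in 32.7% of promoters and in neither window.

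Ckb, the cytosolic creatine kinase first named for brain, was the most abundant member and was higher in PDX1P33T islets. In wild-type islets its level was 44.3, 34.1, 26.4, 30.4, 31.5 and 30.7 FPKM in replicates 1 to 6, or 32.9 ± 6.13 (SD, n = 6). In PDX1P33T islets it was 49, 50.9, 54.7, 48.6 and 54.9 FPKM in replicates 1 to 5, or 51.6 ± 3.02 (SD, n = 5). The groups did not overlap, and the nearest libraries were wild-type replicate 1 and PDX1P33T replicate 4, a ratio of 1.1. The ratio of the means was 1.57, and the log2 difference on the log2(FPKM + 0.1) scale was 0.66 with a standard error of 0.12. Every PDX1P33T library was above every wild-type library for 110 of 4555 genes with both genotypes (2.41%), and for 103 of the 1673 (6.16%) that were placed, as Ckb was, through the study's ordered gene table. These shares are given beside Ckb as a description, since Ckb was chosen by the same contrast. A larger log2 difference than that of Ckb was found for 94 of the 4555 genes.

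**Figure D1:**
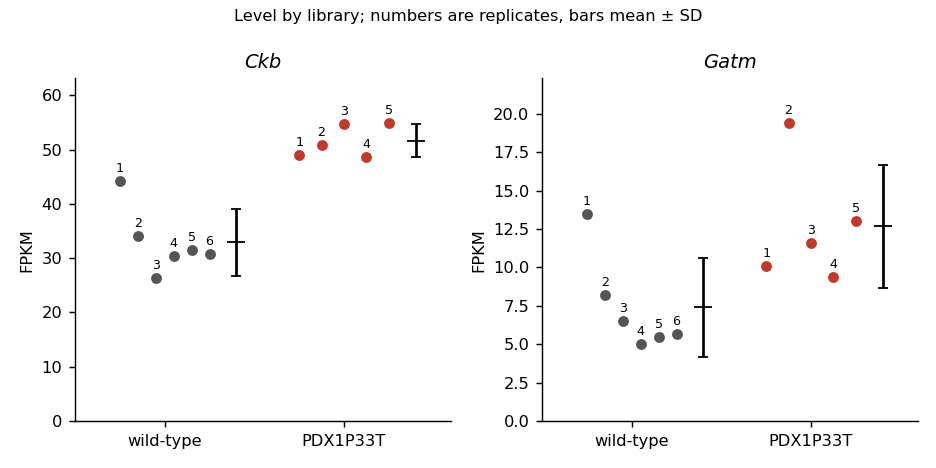
Level of Ckb (left) and Gatm (right) in FPKM, on axes that start at 0, in 6 wild-type (grey) and 5 PDX1P33T (red) libraries. Numbers are replicates and bars give the mean ± SD. All PDX1P33T points of Ckb lie above 44.3 FPKM, the highest wild-type value, whereas Gatm in wild-type replicate 1 (13.5 FPKM) lies among the PDX1P33T points.

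The values of Ckb rest on 1475 to 3261 reads in wild-type and 3465 to 5858 reads in PDX1P33T, for which the counting error is between 1.31% and 2.6%. The spread between libraries was wider, with a coefficient of variation of 18.6% in wild-type and 5.86% in PDX1P33T. Wild-type replicate 1 was the highest of its group, and without it the log2 difference was 0.75. Leaving out each library in turn gave 0.61 to 0.75. The length recovered from the FPKM steps of Ckb, 2895 bases, equals its summed exons in GENCODE. Of its stretches of 50 bases, 9.98% also occur in a transcript of another gene, nearly all in Gm12892, which was at 0.0368 to 0.142 FPKM in PDX1P33T. Reads from those stretches may have been shared between both genes.

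Ckb and endothelial markers moved in opposite directions between the wild-type libraries. Of the 5 endothelial markers listed, 3 had values of both genotypes, Pecam1, Kdr and Cdh5, and their summed level was 28.1, 41.5, 146, 54.8, 57.5 and 62.5 FPKM in wild-type replicates 1 to 6. In PDX1P33T replicates 1 to 5 it was 49.4, 22, 35, 51.4 and 35.2 FPKM. The wild-type library with the most endothelial transcript, replicate 3, had the least Ckb, and the one with the least, replicate 1, had the most Ckb. After the mean of its genotype was taken from each library, r with Ckb over the 11 libraries was -0.84 for Pecam1, -0.80 for Kdr and -0.81 for Cdh5. In the 6 wild-type libraries alone r was -0.92, -0.92 and -0.89, and in the 5 PDX1P33T libraries alone -0.49, -0.30 and -0.46. Without wild-type replicates 1 and 3, r over the remaining libraries was -0.57, -0.34 and -0.61, so much of the relation rests on these libraries. These markers were compared with Ckb after their values were seen, and all points share library and depth. Other marker lists stood to one side as well, as a count of means with no test. All 3 endothelial, 3 of 3 immune, 4 of 4 stromal and 3 of 3 Schwann and neural markers with both genotypes had a lower log2 mean in PDX1P33T, and 4 of 5 beta cell markers a higher one. The summed immune markers, for example, were at 19.8 to 50.6 FPKM in wild-type and 15.6 to 24.8 in PDX1P33T. With genotype means removed, r with Ckb was 0.74 for G6pc2 and 0.51 for Iapp, both among the 5 beta cell markers with both genotypes. For the other beta cell markers r is not given here. Without wild-type replicates 1 and 3, r was 0.21 for G6pc2 and -0.19 for Iapp. For Gatm r was 0.71, or 0.27 without wild-type replicate 1. With the endothelial level as a covariate the log2 difference of Ckb was 0.52 with a standard error of 0.09, and without the 3 libraries that stood apart in markers it was 0.61. The part of the cell makeup of the islets in the difference of Ckb was not tested beyond these values. In whole islets, fewer cells of a type and less RNA per cell cannot be told apart.

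**Figure D2:**
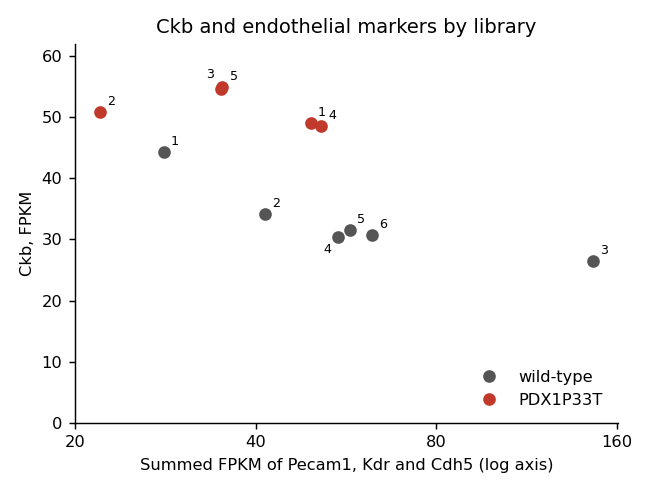
Ckb in FPKM (vertical axis, from 0) against the summed FPKM of Pecam1, Kdr and Cdh5 (horizontal log axis) in 6 wild-type (grey) and 5 PDX1P33T (red) libraries, numbered by replicate. Wild-type replicate 3 stands at 146 FPKM of endothelial markers with the lowest Ckb, and wild-type replicate 1 at 28.1 FPKM with the highest wild-type Ckb.

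Among the 3767 genes with both genotypes and a mean of at least 1 FPKM, the 5 whose levels followed Ckb most closely within the genotypes were Adh1, an alcohol dehydrogenase, Sdha, a subunit of succinate dehydrogenase, Emb, a membrane glycoprotein, Fbxo21, an F-box protein, and Ogdhl, a relative of 2-oxoglutarate dehydrogenase. Pearson's r over the 11 libraries, with genotype means removed, was 0.97 for Adh1 and Sdha and 0.96 for Emb, Fbxo21 and Ogdhl, beside a median of 0.10 over all genes compared. In all, 27 genes had r above 0.9. In the 6 wild-type libraries alone r was 0.96 to 0.99 for the 5, of which 2 were among the first 5 there too. In the 5 PDX1P33T libraries it was 0.62 for Ogdhl, 0.71 for Adh1, 0.78 for Fbxo21, 0.85 for Sdha and 0.93 for Emb. Each genotype is part of the 11 libraries by which these genes were chosen, so r within it is no separate check. All 5 were highest in wild-type replicate 1 and lowest in wild-type replicate 3 of their genotype, as Ckb was. Without wild-type replicates 1 and 3, r was 0.62 for Ogdhl, 0.69 for Fbxo21, 0.76 for Adh1 and Sdha and 0.93 for Emb. Adh1, for example, was at 93.8 FPKM in replicate 1, 33.7 in replicate 3 and 44.5 to 56.9 in the other wild-type libraries. Between genotypes these 5 genes differed by 0.15 to 0.20 on the log2 scale, and none was called.

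Gatm, the first enzyme of creatine synthesis known for its presence in kidney and pancreas, had a higher mean in PDX1P33T islets, but the groups overlapped. Its level was 13.5, 8.23, 6.51, 4.99, 5.45 and 5.66 FPKM in wild-type replicates 1 to 6, or 7.38 ± 3.19 (SD, n = 6). In PDX1P33T replicates 1 to 5 it was 10.1, 19.4, 11.6, 9.36 and 13 FPKM, or 12.7 ± 4.02 (SD, n = 5). Wild-type replicate 1 was above 4 of the 5 PDX1P33T libraries, and the other wild-type libraries were below all of them. The log2 difference was 0.81 with a standard error of 0.25, a ratio of means of 1.72, and limma's Benjamini-Hochberg adjusted p was 0.493, so Gatm was not called. The adjustment ran over all 19329 gene IDs, and over the 4555 genes in the fit alone the adjusted p was 0.116. For this gene alone, the exact two-sided permutation test over the 11 libraries gave p = 0.0303, where the smallest p it can give is 0.00433. Of all genes in the fit, 0.0659% were called higher and 0.0659% lower in PDX1P33T, 3 each. The wild-type row of Gatm is known only because the gene is in the part of the study's gene table used here, which is ordered by the same contrast, so neither p is independent of how the row was found.

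The highest Gatm value, 19.4 FPKM in PDX1P33T replicate 2, stood beside a high level of acinar transcripts. The 13 acinar markers, which include the elastase gene Cela1 and the chymotrypsinogen gene Ctrb1, summed to 135 FPKM in that library and to 11.5 to 24.5 FPKM in the other 4, with Zg16 at 0 in all of them. That library also had the highest Iapp and the lowest summed endothelial markers of its genotype (22 FPKM). In the other 4, Gatm did not rise with Ctrb1. Ctrb1 was at 6.52 and 6.29 FPKM in replicates 1 and 4, where Gatm was at 10.1 and 9.36. In replicates 3 and 5 Ctrb1 was at 2.51 and 3.15 FPKM and Gatm at 11.6 and 13. No acinar marker had an identified wild-type row, so the part of acinar transcripts in the difference of Gatm was not tested. Without PDX1P33T replicate 2 the log2 difference was 0.65 (limma adjusted p = 0.899), and without wild-type replicate 1 it was 1.00 (limma adjusted p = 0.133). Without wild-type replicate 1 and adjusted over the genes in the fit alone, limma's adjusted p was 0.0313 and Gatm was called. In that setting 572 of the 4555 genes were called, against 6 with all libraries and adjustment over all gene IDs. With the endothelial level as a covariate the log2 difference was 0.51 with a standard error of 0.21 (limma adjusted p = 1). Without all 3 libraries that stood apart it was 0.69 (limma adjusted p = 1). Across libraries Ckb was 3.29 to 6.09 times as abundant as Gatm in wild-type and 2.62 to 5.19 times in PDX1P33T, ranges that overlap.

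In PDX1P33T islets the order of the levels was Ckb, Gatm, Ckmt1, Slc6a8 and Gamt, and no neighbours in that order overlapped between libraries. Ckmt1, the mitochondrial creatine kinase found in most tissues, which couples creatine to ATP leaving the mitochondrion, was at 7.26, 7.7, 7.85, 8.46 and 7.94 FPKM in replicates 1 to 5, or 7.84 ± 0.434 (SD, n = 5). Its coefficient of variation of 5.54% was close to that of Ckb. Ckb was 5.75 to 6.96 times as abundant as Ckmt1, and made up 86.8% ± 0.929 (SD, n = 5) of their summed FPKM. On chromosome 2 Ckmt1 overlaps Strc, a gene on the other strand, which was at most 0.0338 FPKM.

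Slc6a8, the X-linked creatine carrier, was at 4.95, 3.66, 4.61, 4.82 and 4.37 FPKM in PDX1P33T replicates 1 to 5, or 4.48 ± 0.509 (SD, n = 5). Replicate 2, the library with the most acinar transcript and the most Gatm, had the least Slc6a8, and the ratio of Slc6a8 to Gatm was 0.188 there against 0.336 to 0.514 in the other 4. Gamt, which methylates guanidinoacetate to creatine, was the least abundant, at 0.67, 0.379, 0.537, 0.366 and 0.432 FPKM, or 0.477 ± 0.127 (SD, n = 5). These values rest on 13 to 26 reads per library, whose counting error of 19.6% to 27.7% is close to the coefficient of variation of 26.7%, so differences between these libraries were not detectable at this depth. Gatm was 15.1 to 51.3 times as abundant as Gamt. Set among the 18963 gene IDs with a value in any PDX1P33T library, Ckb was above 96.3%, Gatm above 84.8%, Ckmt1 above 77.6%, Slc6a8 above 67.6% and Gamt above 31.3%.

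**Figure D3:**
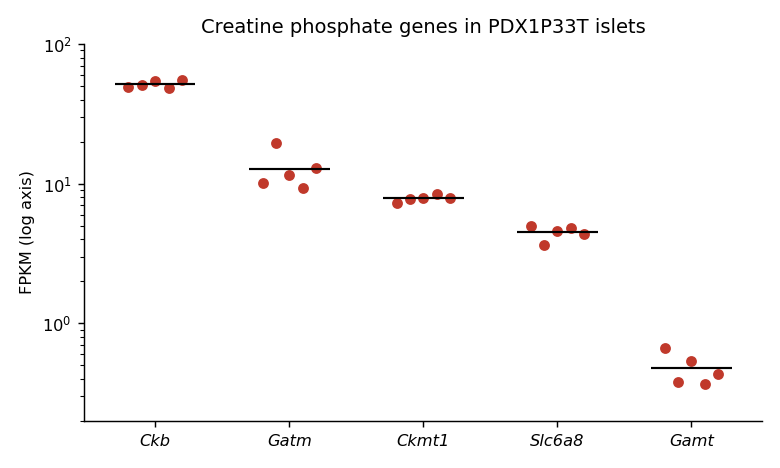
Level in FPKM (log axis) of the 5 members with a row, in the 5 PDX1P33T libraries. Points are replicates 1 to 5 from left to right and lines are means. The members form 5 separate steps, from 51.6 FPKM for Ckb to 0.477 FPKM for Gamt.

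The wild-type rows of Ckmt1, Slc6a8 and Gamt could not be told from those of other genes, and the rows that could hold them are given as a description, with no test. A row was kept as possible if its recovered gene length was the same and its mean lay within 4-fold of that in PDX1P33T, and the right row may also be none of those found. For Ckmt1, of 2496 bases, 2 rows were possible, with a mean of 6.26 ± 1.41 and 5.37 ± 0.519 FPKM (SD, n = 6), both lower than the 7.84 FPKM of PDX1P33T. The PDX1P33T libraries, set against them, were higher by 0.35 and 0.54 on the log2 scale, overlapping the first row and not the second. For Slc6a8, of 5210 bases, 4 rows were possible, with means of 1.37, 3.37, 4.13 and 5.03 FPKM. Set against the last of these PDX1P33T was lower (-0.16 on the log2 scale) and against the other three higher (0.12 to 1.64), so not even the direction is known. For Gamt, of 1444 bases, 1 row with a mean of 0.307 ± 0.16 FPKM (SD, n = 6) was possible, from 1 to 22 reads, and another gene of that length could hold it too.

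**Figure D4:**
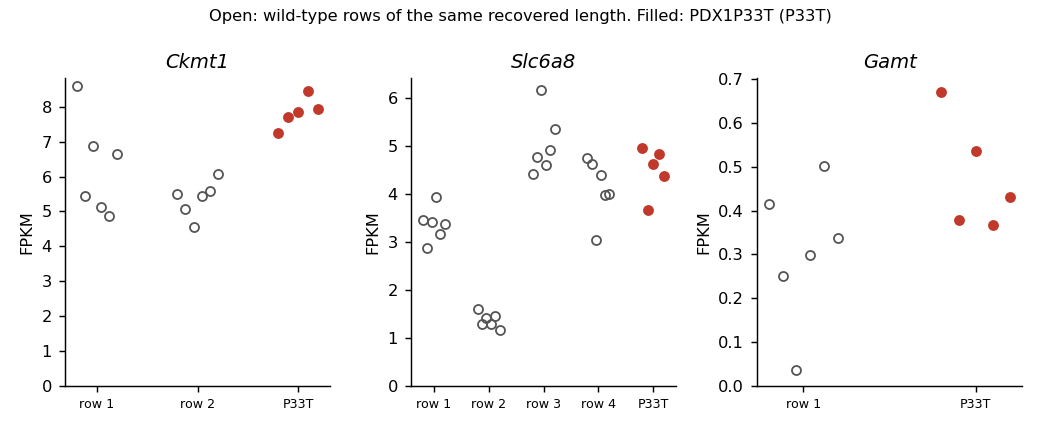
FPKM (axes from 0) of the rows that could hold the wild-type values of Ckmt1, Slc6a8 and Gamt (open grey points, 6 libraries each) beside the PDX1P33T values of the gene (filled red points, 5 libraries). Ckmt1 has 2 possible rows, Slc6a8 has 4, on both sides of its PDX1P33T mean of 4.48 FPKM, and Gamt has 1.

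Genes around the pathway were read from 6 lists of 59 genes, of which 51 had a row and 10 had values of both genotypes. None of the 10 was called by limma on log2(FPKM + 0.1) or by limma voom on recovered reads, beside 0.132% of all genes in the fit, and 3 had an unadjusted p under 0.05, beside 35.4% of all genes in the fit, many of which were placed through a table ordered by the contrast. Their median log2 difference was 0.12, beside -0.05 over all genes in the fit, with 6 higher and 4 lower in PDX1P33T. Of the 10, 7 were placed by length and level, and the median of all genes placed that way was 0.05, against -0.32 for genes placed through the ordered table. All 10 are named below because their wild-type rows were identified. For each list the 2 genes with the highest PDX1P33T level are named too.

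Of the genes that carry ATP out of mitochondria, 4 of 7 had both genotypes. Slc25a5, an exchanger of ADP for ATP, was at 81.2 to 127 FPKM in wild-type and 108 to 159 in PDX1P33T, a log2 difference of 0.35 (limma adjusted p = 0.494). Slc25a4, another ADP and ATP exchanger, was at 58.2 to 85.3 FPKM in wild-type and 75.6 to 118 in PDX1P33T, a log2 difference of 0.34 (limma adjusted p = 0.5). Both had their highest value in PDX1P33T replicate 2, where the others of that genotype did not exceed 82.1 FPKM for Slc25a4 and 124 for Slc25a5. Without that library the log2 differences were 0.22 for Slc25a4 and 0.26 for Slc25a5. The phosphate carrier Slc25a3 and the outer membrane channel gene Vdac2 differed by 0.16 and 0.10, with adjusted p of 0.891 and 1 in limma's fit. The genotypes overlapped for all 4 genes, and the list's median was 0.25.

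Of the users and sensors of the ATP to ADP ratio, 3 of 12 had both genotypes. Abcc8 and Kcnj11, the subunits of the potassium channel that ATP closes, had log2 differences of -0.24 and -0.17 (limma adjusted p = 0.763 and 0.778). Abcc8 was at 92.3 to 114 FPKM in wild-type and at 88.8 to 99.2 in 4 PDX1P33T libraries, with 59.6 in replicate 2, without which its log2 difference was -0.12. Atp1b1, the beta subunit of the sodium pump, had a log2 difference of 0.55 (limma adjusted p = 0.52) and ran from 16.8 to 46.2 FPKM in wild-type and from 37.2 to 58.1 in PDX1P33T. Without PDX1P33T replicate 2 the log2 difference of Atp1b1 was 0.45. The list's median was -0.17. Its most abundant genes in PDX1P33T were the calcium pumps Atp2a3, at 154 ± 18.4 FPKM (SD, n = 5), and Atp2a2, at 144 ± 18.3.

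**Figure D5:**
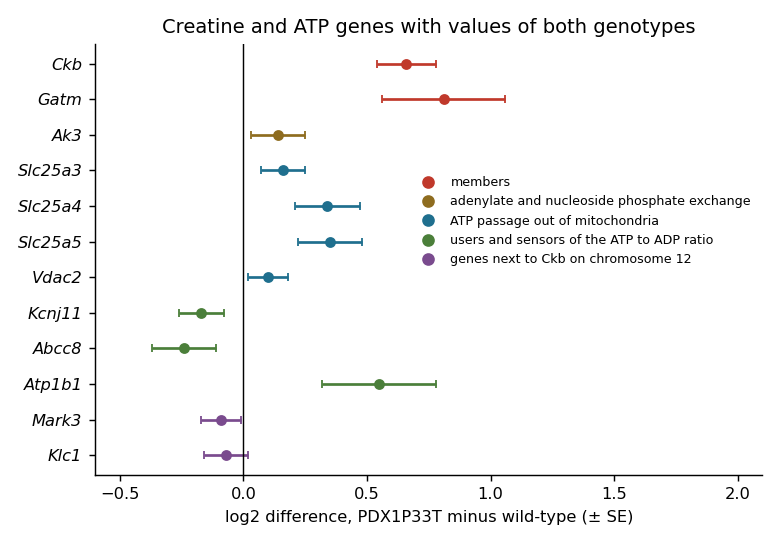
Log2 difference between PDX1P33T and wild-type on the log2(FPKM + 0.1) scale, with the standard error of the limma fit as bars, for Ckb, Gatm and the 10 genes of the lists with both genotypes, coloured by list. Ckb (0.66) and Gatm (0.81) stand to the right of the 10, which run from -0.24 to 0.55.

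The listed genes that act around the glycine, arginine and methyl groups of creatine synthesis, some of which use these up, were known in PDX1P33T alone. Mat1a, which makes the methyl donor S-adenosylmethionine, was the highest of the 11 at 20.5 ± 0.644 FPKM (SD, n = 5), followed by Shmt2, a mitochondrial source of glycine, at 17.6 ± 2.91. The glycine cleavage gene Gldc and the arginase gene Arg2, at 0.159 and 0.0762 FPKM, were chosen after their values were seen and were the lowest of the list. Arg1, the other arginase gene of the list, was at 15.8 FPKM, from 13 to 19.6 between libraries. Of the other carriers 3 of 6 had a row. Slc16a12, a member of the monocarboxylate carrier family that carries creatine, was at 27.3 ± 8.78 FPKM (SD, n = 5), against 4.48 for Slc6a8, with 42.3 in replicate 2 and 21.1 to 27.4 in the other 4. The taurine carrier Slc6a6 was at 17.4 ± 2.51 FPKM.

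Of the 16 genes of adenylate and nucleoside phosphate exchange, only Ak3, a mitochondrial adenylate kinase, had both genotypes. Wild-type islets had 7.65 ± 1.13 FPKM of Ak3 (SD, n = 6) and PDX1P33T islets 8.4 ± 0.683 (SD, n = 5), a log2 difference of 0.14 (limma adjusted p = 1). Nme1, a nucleoside diphosphate kinase, and Ampd2, an AMP deaminase, were the highest in PDX1P33T, at 19.1 ± 3.38 and 19.1 ± 1.66 FPKM. Ak1, the cytosolic adenylate kinase, which was chosen after its value was seen, was at 15.4 ± 1.14 FPKM, so Ckb was more abundant than each of these.

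The genes beside Ckb on chromosome 12 were set beside it. Mark3, a kinase gene 13140 bases away on GRCm38, had a wild-type level of 5.74 ± 0.435 FPKM (SD, n = 6) and a PDX1P33T level of 5.37 ± 0.178 (SD, n = 5). For Klc1, a kinesin light chain gene, the levels were 4.5 ± 0.359 and 4.28 ± 0.391 FPKM. Their log2 differences were -0.09 and -0.07 (limma adjusted p = 1 for each), against 0.66 for Ckb. Both rows were found by length and level, a rule that requires a level within 4-fold between the genotypes. Of the neighbours with PDX1P33T values alone, Zfyve21 and Bag5 were the highest, at 22.2 ± 7.38 and 14.1 ± 1.03 FPKM. Trmt61a, the nearest, was at 5.21 ± 0.631 FPKM and was named for its position.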

How the data were processed

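mRNA libraries of whole islets were sequenced for 6 wild-type and 5 PDX1P33T samples. Per the submitters' processing notes, the authors used fastp 0.23.1, HISAT2 2.0.5, featureCounts 1.5.0-p3 and DESeq2 1.20.0 on GRCm39. The authors deposited FPKM, and strandedness is not settled by the sources used here. Their own comparison columns (fold changes and p-values) were not used. Reads and lengths were recovered from FPKM steps. Wild-type rows were identified from read counts in the part used here of the study's ordered gene table (1712 genes), or where exactly 1 row had the same length, at least 100 reads and a level within 4-fold, with no rival within 16-fold (2882 more). By both routes 330 of 330 genes fell on the same row. Genes at 0 in all PDX1P33T libraries (39) left 4555 in the fit.

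Genotypes were compared with limma 3.58.1 (trend and robust options) on log2(FPKM + 0.1), Benjamini-Hochberg adjusted over 19329 gene IDs. Calls required adjusted p of 0.05 or less together with a 1.5-fold change or more. The fold changes understate those of low genes. Scripts were tested on simulated data. The rule for named genes took all 7 members, of each list the genes called or not overlapping and otherwise the 2 highest, and the 5 genes most like Ckb. 1 gene of the lists is not reported here. Members and lists were chosen with earlier results of these data known. Alternatives were the pseudocount, each library left out, centring, the replicate block, voom on recovered reads, a filter on low values, a stricter fold, TPM scaling and plain empirical Bayes. Leaving out 3 libraries, an endothelial covariate and adjustment over the genes in the fit alone were chosen after seeing the data. Counting errors cover counting only, whereas SDs and standard errors measure the spread between libraries.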

Additional observations from a re-analysis of the deposited data

Results flagged for a closer look

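A library was marked where its gap to the nearest other library of its genotype, divided by the range of that genotype, was above Dixon's 95% critical value (0.71 for 5 libraries, 0.625 for 6). Of 52 groups of values looked at, 14 were marked, and 9 of the 14 were PDX1P33T replicate 2. The rule marks about 1 in 20 of independent groups by chance. These groups share libraries and some were picked for their values, so that rate does not apply to them. None of the 7 groups of values of Ckb, Gatm, Ckmt1, Slc6a8 and Gamt was marked.

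PDX1P33T replicate 2 stood at 121 FPKM for Atp2a3 against 159 to 167 in the other 4 (gap ratio 0.823), at 118 for Slc25a4 against 75.6 to 82.1 (0.847), at 35.2 for Zfyve21 against 16.8 to 20.8 (0.782) and at 16.1 for Ampd2 against 19.3 to 20.1 (0.801). It stood at 12.7 for Shmt2 against 17.8 to 19.9 (0.712), at 13 for Slc6a6 against 18.2 to 19.1 (0.865), at 28.8 for Vdac2 against 24.7 to 25.6 (0.78) and at 59.6 for Abcc8 against 88.8 to 99.2 (0.738). Its summed acinar markers were 135 FPKM against 11.5 to 24.5 (0.895). Ckb in this library, 50.9 FPKM, was the middle value of its genotype.

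Wild-type replicate 1 stood at 27.7 FPKM for Vdac2 against 22.2 to 23.8 in the other 5 (gap ratio 0.706), at 59.8 for Sdha against 35.5 to 43.2 (0.682) and at 40.7 for Ogdhl against 19.3 to 25.8 (0.699), and it was also the highest wild-type library for Ckb and Gatm. Wild-type replicate 3 had summed endothelial markers of 146 FPKM against 28.1 to 62.5 (0.708), and wild-type replicate 2 had summed stromal markers of 27.3 FPKM against 1.41 to 5.88 (0.828). What sets these libraries apart was not tested.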

How the results depend on the processing

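The log2 difference of Ckb was positive under all 21 alternatives, from 0.52 with the endothelial covariate to 0.75 without wild-type replicate 1, and that of Gatm under all 22, from 0.51 to 1.00 with limma adjusted p of 0.0313 to 1. The groups of Ckb did not overlap, so its sign could not change with the pseudocount or with libraries left out. A change of adjustment alone leaves every log2 difference as it was. For Gatm, keeping only rows from the ordered gene table repeats the main fit (0.81). Gatm was called in 1 of the 22, where its log2 difference was 1.00. That setting adjusted over the 4555 genes in the fit, in place of 19329 gene IDs, without wild-type replicate 1. There 572 of the 4555 genes were called. Without each library in turn Ckb ran from 0.61 to 0.75 and Gatm from 0.65 to 1.00. The median of the 10 list genes ran from 0.04 to 0.17.

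Of genes called (3 higher, 3 lower), 1 was higher with a pseudocount of 0.01 and with a mean of at least 1 FPKM in each genotype, and 0 where the absolute log2 difference had to reach 1.5. Leaving out 1 library gave 1 to 3 higher and 2 to 5 lower, with 1 higher without wild-type replicate 2, 5 or 6 or PDX1P33T replicate 1, 3, 4 or 5, and 5 lower without wild-type replicate 1. Adjusted over the genes in the fit, 6 were higher and 7 lower, and 170 and 402 if wild-type replicate 1 was also left out, Atp1b1 among them. Leaving out wild-type replicate 1 with adjustment over all gene IDs gave 3 higher and 5 lower. Many genes in the fit were placed through a table ordered by the contrast. The cause of the changes in count was not tested for any setting. No member was among the 6.

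With the replicate block by titles 0 genes were called higher and 1 lower, Ckb differed by 0.65 and Gatm by 0.76. With the replicate block by library names 1 was higher and 2 lower, Ckb differed by 0.61 and Gatm by 0.80. Deviations of same-numbered libraries correlated by -0.583 to 0.116 (titles) and -0.583 to 0.0815 (library names), so the numbers were not taken as pairs.

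Scaling to TPM, which changes the unit, put the means in PDX1P33T at 101 for Ckb, 24.4 for Gatm, 15.4 for Ckmt1, 8.85 for Slc6a8 and 0.936 for Gamt, in the same order. Leaving out 1 library moved them to 50.8 to 52.3, 11 to 13.5, 7.69 to 7.99, 4.36 to 4.69 and 0.428 to 0.504 FPKM. Depth limits Gamt, and the missing wild-type rows limit Gamt, Ckmt1 and Slc6a8.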
